A study of Drosophila melanogaster with 5 samples.

Results

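The post-meiotic cup genes of Drosophila melanogaster are described here by their mRNA on testis ribosomes. The members were chosen by name as soti and every gene whose symbol ends in -cup, which gave 12 of the 12847 genes of the deposited table. They are soti, c-cup, d-cup, f-cup, h-cup, m-cup, p-cup, r-cup, s-cup, t-cup, w-cup and wa-cup. The rule uses names alone and no measured value, but it was chosen with earlier results of these data known. RNA was sequenced from ribosomes precipitated with antibodies to βNACtes (βNACtes IP, 3 libraries) and from total ribosomes of the same kind of extract (2 libraries). βNACtes is the germ cell form of the β chain of NAC, a complex that sits on ribosomes where the growing protein comes out.

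Each extract was made from 1000 frozen testes of adult males of the Batumi strain, with no transgene or mutation named and an age given without a unit, in a buffer with cycloheximide, which holds ribosomes on mRNA. All 5 libraries come from such a ribosome extract. Part of it was taken as total ribosomes and part was incubated with beads that carried the antibodies. The antibodies do not distinguish the βNACtes paralogs from each other. None of the 5 libraries is labelled as a precipitation with a control antibody, so binding to the beads without the antigen was not measured here. The table gives 1 mean per gene for the βNACtes IP and 1 for total ribosomes. No spread between libraries, no test and no depth can therefore be given, and every difference below is a difference between 2 means without a replicate check.

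In Drosophila most genes needed for sperm formation are transcribed in primary spermatocytes, and the mRNAs are kept until they are translated in spermatids. The cup genes are known as exceptions that are transcribed after meiosis. Their mRNAs lie at the ends of elongating spermatid bundles, in a cup-shaped pattern, while those of the related comet genes form comet-shaped patterns there. soti encodes a small inhibitor of the Cullin-3 ubiquitin ligase that acts when the spermatids of a bundle are separated from each other, a step that uses caspases without cell death. Neither the position of an mRNA within a spermatid nor the time of its transcription was measured in these libraries.

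All 12 genes had a higher value in the βNACtes IP than in total ribosomes, as had most genes of the table. The table names no unit, and its values were taken as FPKM (fragments per kilobase of transcript, scaled by library size), a scale per length on which levels of different genes can be compared. Summed over the 12 genes the βNACtes IP had 1990 FPKM and total ribosomes 411 FPKM, a ratio of 4.85. Since most genes of the table were higher in the βNACtes IP on this scale, each ratio was set against the median of all genes. The 9793 genes whose 2 values averaged 1 FPKM or more had a median log2 ratio of 0.73, after 0.1 FPKM was added to each value. A relative log2 ratio is the log2 ratio of a gene minus this median. The 0.1 FPKM added shrinks the log2 ratio of genes with low values, while the folds given for single genes are ratios of the 2 values without it. A gene was called higher or lower where its relative log2 ratio was at least 1 or at most −1.

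Of the 12 genes, 9 were called higher in the βNACtes IP, and none was called lower. Over all 9793 genes 26.4% were called higher and 29.2% lower. The median relative log2 ratio of the 12 genes was 1.72, against 0 for all genes by construction. The lowest of the 12 was c-cup at 0.14 and the highest s-cup at 3.50. All 12 passed the filter on low values, s-cup only through its value in the βNACtes IP. Without s-cup 8 of 11 were called higher. Both columns come from the same kind of extract, and neither the number of spermatids nor the RNA per spermatid was measured. The part of the mix of cells in the ratio was not tested. A larger precipitated share of the ribosomes on an mRNA and binding to the beads without the antigen cannot be told apart here.

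**Figure D1:**
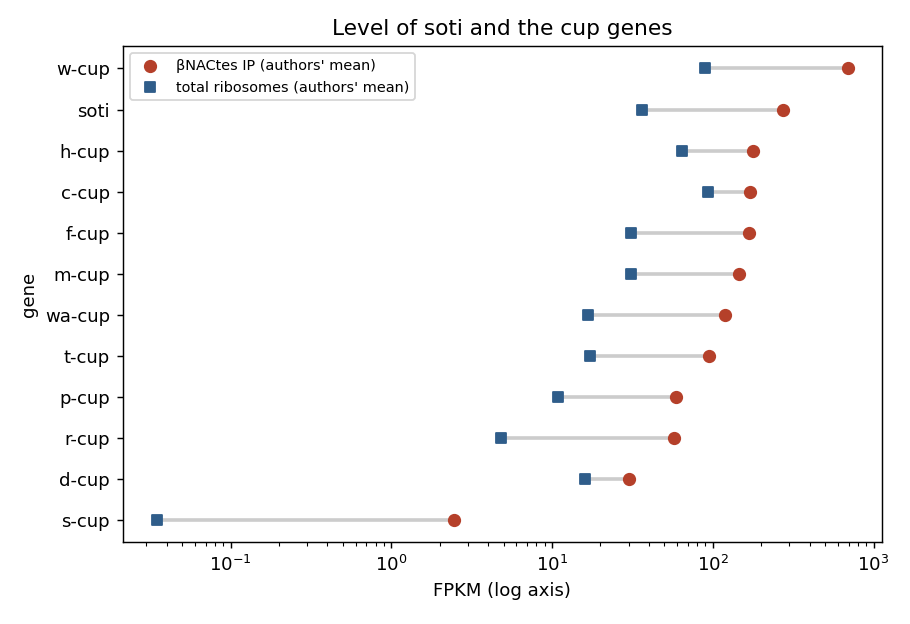
Level of each of the 12 genes in FPKM on a log axis, with circles for the authors' mean of the βNACtes IP, squares for that of total ribosomes and no error bars, since the table holds 1 mean per group. The circle lies to the right of the square for every gene, and w-cup has the highest circle at 690 FPKM.

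**Figure D2:**
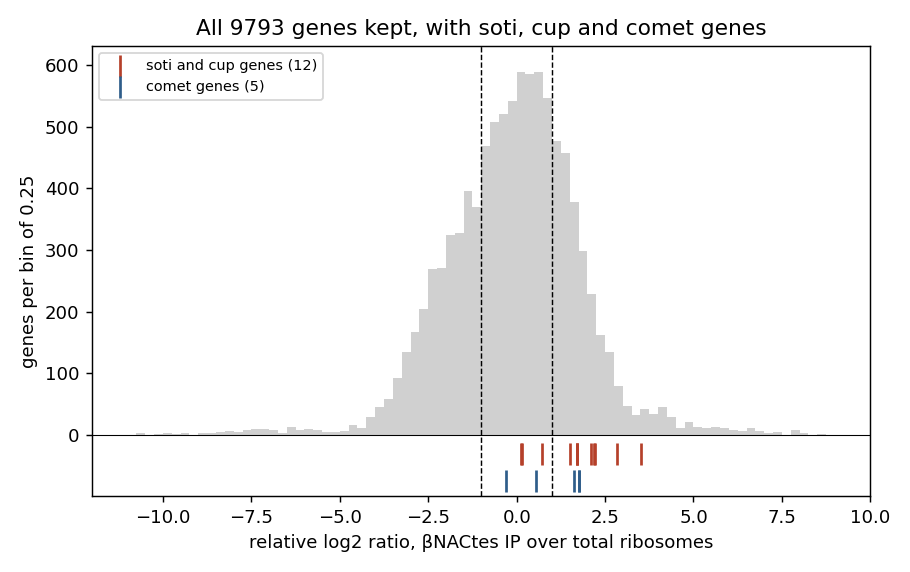
Number of genes in bins of 0.25 of the relative log2 ratio of the βNACtes IP over total ribosomes, for 9793 genes, with a tick for each of the 12 soti and cup genes and, below them, for each of 5 comet genes. The dashed lines mark 1 and −1, and 9 of the 12 upper ticks lie to the right of 1.

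soti is the gene of this group whose protein is best known. It had 275 FPKM in the βNACtes IP and 36.1 FPKM in total ribosomes, a 7.63-fold ratio and a relative log2 ratio of 2.197. Among all 12847 genes it held rank 504 in the βNACtes IP, against rank 2510 in total ribosomes. Only 8.03% of the 9793 genes had a higher relative ratio. In the BDGP6 genome soti (FBgn0038225) lies on chromosome 3R from 14380663 to 14381699 on the minus strand. It is annotated with a single exon of 1037 bp, of which 441 bp code for 147 residues.

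The most abundant gene of the group in the βNACtes IP was w-cup (FBgn0032269, chromosome 2L, 10575860 to 10577792). Its level was 690 FPKM in the βNACtes IP, which ranked 153 of all genes, and 88.9 FPKM in total ribosomes, which ranked 1283. The relative log2 ratio of w-cup was 2.22, close to that of soti. It made up 34.7% of the summed level of the 12 genes in the βNACtes IP, against 21.6% in total ribosomes. The gene lies within the span of Trim9 on the other strand, and their exons do not overlap. Trim9 itself was at 0.13 FPKM in the βNACtes IP and 0.02 FPKM in total ribosomes.

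wa-cup had 119 FPKM in the βNACtes IP and 16.8 FPKM in total ribosomes, with a relative log2 ratio of 2.09. With w-cup and soti it formed a group of 3 genes of nearly equal ratio. The 3 have different gene structures: wa-cup (FBgn0037502, chromosome 3R, 7420765 to 7423057) has 8 exons and 580 coded residues, w-cup 2 exons and 409 residues, and soti 1 exon.

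Another 4 genes had relative log2 ratios between 1.51 and 1.72. t-cup had 94.97 FPKM in the βNACtes IP and 17.3 FPKM in total ribosomes. f-cup had 168 FPKM in the βNACtes IP and 30.8 FPKM in total ribosomes. For p-cup the values were 58.9 FPKM in the βNACtes IP and 10.8 FPKM in total ribosomes. The relative log2 ratio was 1.72 for t-cup and f-cup and 1.70 for p-cup, so these 3 genes differed in level and hardly in ratio. m-cup was slightly below them at 1.51, with 146 FPKM in the βNACtes IP and 30.9 FPKM in total ribosomes. f-cup and m-cup had nearly the same level in total ribosomes, and m-cup was 0.87 of f-cup in the βNACtes IP.

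t-cup (FBgn0051858, chromosome 2L, 12496616 to 12497333) is the shortest gene of the group, with 1 exon of 718 bp, and it lies within an intron of bun on the same strand. bun encodes a transcription factor and had 29.7 FPKM in the βNACtes IP and 3.48 FPKM in total ribosomes. The relative log2 ratio of bun was 2.32, above that of t-cup, and its part in the value of t-cup was not tested. f-cup (FBgn0028487, chromosome 3R, 13695263 to 13700838) and m-cup (FBgn0038488, chromosome 3R, 17144475 to 17149412) are the longest genes of the group, with 3529 and 3792 exonic bp. f-cup has up to 14 exons in 9 annotated transcripts, more than any other of the 12. p-cup (FBgn0030840) is X-linked, from 17446350 to 17448774, with 5 exons.

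The largest ratio among the genes well above the filter was that of r-cup (FBgn0031142), the second X-linked gene of the group, from 21023390 to 21025888. It had 57.6 FPKM in the βNACtes IP and 4.79 FPKM in total ribosomes, a 12.02-fold ratio and a relative log2 ratio of 2.83. Of all 9793 genes, 4.20% had a higher relative ratio. r-cup held rank 2302 in the βNACtes IP, against rank 6226 in total ribosomes. Of X-linked genes as a whole, 24.8% were called higher, close to the share over all chromosomes.

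s-cup stands apart by its low level. It had 2.44 FPKM in the βNACtes IP and 0.035 FPKM in total ribosomes. The value in total ribosomes is below the 0.1 FPKM added before the logarithm, and the relative log2 ratio of 3.50 is 1.10 when 1 FPKM is added instead. The ratio of s-cup is thus set by the constant, while its low level is seen in both columns, with rank 8523 in the βNACtes IP and rank 10880 in total ribosomes. s-cup (FBgn0050044) lies on chromosome 2R from 12495672 to 12501459, within the span of fdl on the other strand and without exonic overlap. fdl, a hexosaminidase gene, had 18.5 FPKM in the βNACtes IP and 8.23 FPKM in total ribosomes. The nearest listed gene to the right of s-cup that does not overlap it is vis, which encodes a TGIF-class transcription factor required in spermatocytes and had 4.83 FPKM in the βNACtes IP and 4.13 FPKM in total ribosomes.

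The remaining 3 genes were not called. c-cup had 171 FPKM in the βNACtes IP and 93.5 FPKM in total ribosomes, with a relative log2 ratio of 0.14. d-cup had 30.1 FPKM in the βNACtes IP and 16.1 FPKM in total ribosomes, with a relative log2 ratio of 0.17. For h-cup the values were 177 FPKM in the βNACtes IP and 64.6 FPKM in total ribosomes, with a relative log2 ratio of 0.72. c-cup and d-cup therefore lay near the median of all genes, with ratios of 1.82 and 1.87 before centring, and h-cup between them and the other 9.

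The position of c-cup in the group differed between the columns. In the βNACtes IP w-cup, soti and h-cup were above it, while in total ribosomes it was the most abundant of the 12 genes. Ratios between genes of 1 column do not depend on how the columns are scaled. In the βNACtes IP w-cup was 4.04 times c-cup, and in total ribosomes it was 0.95 times c-cup. soti was 1.61 times c-cup in the βNACtes IP and 0.386 times c-cup in total ribosomes. r-cup was 1.91 times d-cup in the βNACtes IP and 0.297 times d-cup in total ribosomes. Of the 66 pairs that the 12 genes form, 58 had the same order of levels in both columns. Without replicates neighbours in either order cannot be told apart from each other.

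Exons of 4 of the 12 genes overlap exons of another gene in the annotation, and all 3 genes that were not called are among them. The share of all genes with such an overlap is not given here, and no link between overlap and calls was tested. The coding gene Rbp runs over 327 bp of h-cup (FBgn0038334, chromosome 3R, 15381407 to 15382951) on the other strand. The noncoding RNA CR44235 covers 457 bp of d-cup (FBgn0038089, chromosome 3R, 12891956 to 12893158), also on the other strand, and is listed at 0 in the βNACtes IP and at 2.71 FPKM in total ribosomes. In c-cup (FBgn0031367, chromosome 2L, 1831627 to 1832565) 115 bp are also annotated as mir-2280 on the same strand, and mir-2280, Rbp and ninaB were not analysed here. Of the 9 genes called higher, f-cup alone has such an overlap, of 251 bp with CG14367 and 63 bp with ninaB, both on the other strand. CG14367 had 244 FPKM in the βNACtes IP and 44.6 FPKM in total ribosomes. Whether the reads were counted by strand is not given in the sources used here, and the part of these overlaps in the ratios was not tested.

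**Figure D3:**
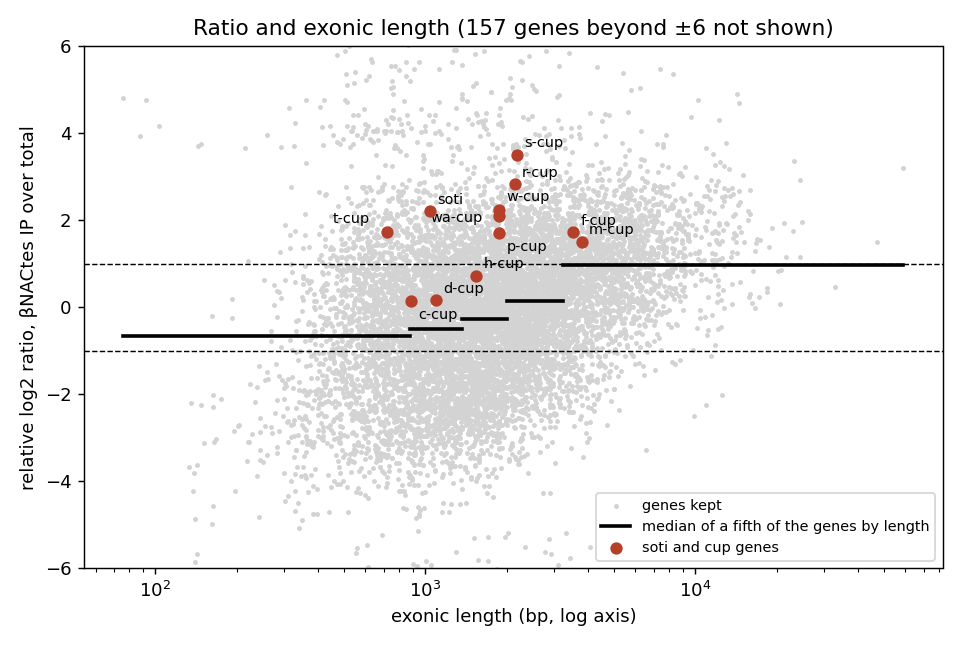
Relative log2 ratio of the βNACtes IP over total ribosomes against exonic length in bp on a log axis, for all genes kept (grey) and the 12 soti and cup genes (red), with black bars at the median of each of 5 equal groups of genes by length. The bars climb from −0.66 to 0.98, each red point lies above the bar of its group, and 157 genes beyond 6 on either side are not drawn. The point of s-cup passed the filter on low values only through the βNACtes IP.

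Over all genes the ratio was higher for longer genes. In 5 equal groups by exonic length, the share of genes called higher was 19.1% from 76 to 875 bp, 17.2% up to 1372 bp, 19.7% up to 2006 bp, 27.0% up to 3223 bp and 49.0% above. The exonic length of the 12 genes ranged from 718 to 3792 bp. f-cup and m-cup fall in the longest group, whose median relative log2 ratio was 0.98, against 1.72 for f-cup and 1.51 for m-cup. soti, c-cup and d-cup fall in the second group, with a median of −0.51, against 2.197 for soti. For each of the 12 genes the relative log2 ratio was above the median of its own group. The same held for each of the 12 in 5 equal groups by mean level, which is made of the same 2 values as the ratio. In both groupings the place of s-cup was fixed by the filter, which it passed only through the βNACtes IP. There 7 of the genes fall in the highest group, with a median of −0.29 and 20.4% called higher.

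The genes are spread over the genome. Of the 12, 6 lie on 3R, 3 on 2L, 2 on X and 1 on 2R, and no 2 of them are neighbours. The nearest listed genes to the left and right give 24 neighbours, of which 17 passed the filter on low values. Of these 17, 5 were called higher and 5 lower, against 26.4% and 29.2% of all genes. Of the 5 called higher, TwdlW and CR44176 are listed at 0 in total ribosomes and passed the filter only through the βNACtes IP. NK7.1, a homeobox gene next to soti, had 9.33 FPKM in the βNACtes IP and 0.855 FPKM in total ribosomes, with a relative log2 ratio of 2.57 above that of soti. Next to r-cup, 236 bp away on the same strand, lies CG1532, with 42.9 FPKM in the βNACtes IP and 102 FPKM in total ribosomes and a relative log2 ratio of −1.98. This gene and r-cup thus lay on opposite sides of the median. w-cup lies between CG34160 (210 FPKM in the βNACtes IP, 95.8 FPKM in total ribosomes) and CG6138 (170 and 78.9 FPKM in the same order). The relative log2 ratios of these neighbours were 0.40 and 0.38, against 2.22 for w-cup.

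The comet genes are, like the cup genes, known to be transcribed after meiosis. Of 6 on the list 5 were found in the table. Of these 5, 3 were called higher and none lower, against 26.4% and 29.2% of all genes. schuy had 337 FPKM in the βNACtes IP and 60.1 FPKM in total ribosomes, hale 423 FPKM in the βNACtes IP and 82.6 FPKM in total ribosomes, and sunz 145 FPKM in the βNACtes IP and 25.5 FPKM in total ribosomes. Their relative log2 ratios lay between 1.62 and 1.77, within the range of t-cup, f-cup, p-cup and m-cup or just above it. boly was at 0.56, with 376 FPKM in the βNACtes IP and 154 FPKM in total ribosomes. hubl was at −0.30, with 4.07 FPKM in the βNACtes IP and 3.00 FPKM in total ribosomes. The median of the 5 comet genes was 1.62, against 1.72 for the 12 cup genes, and the difference was not tested.

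**Figure D4:**
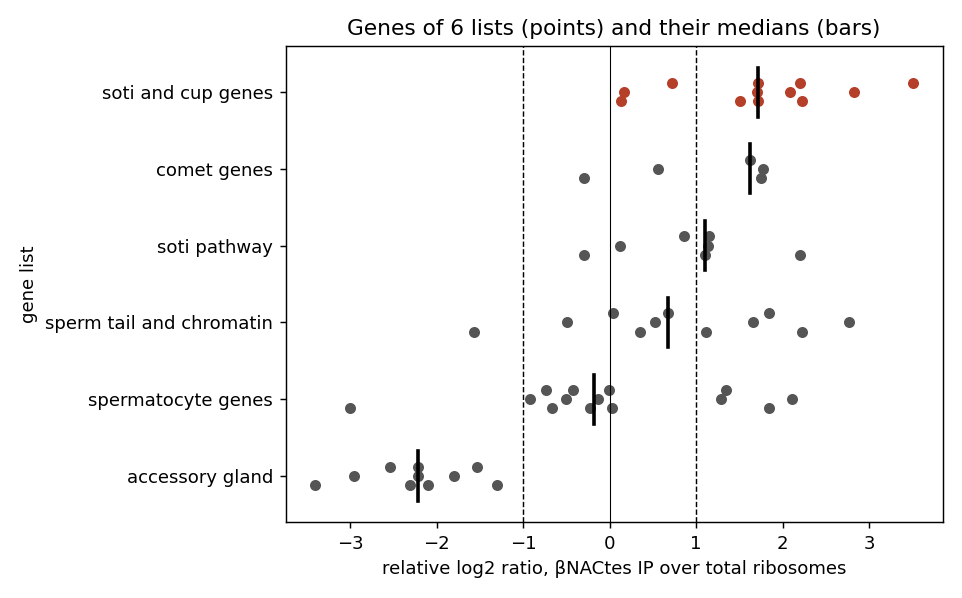
Relative log2 ratio of the βNACtes IP over total ribosomes for each gene of 6 lists (points) with the median of each list (black bars) and dashed lines at 1 and −1. The medians range from 1.72 for soti and the cup genes to −0.18 for spermatocyte genes and −2.21 for accessory gland genes. Not drawn are hub and cyst cell genes (median 1.35), muscle sheath genes (−0.10) and spermatogonial genes (−0.28).

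The Soti protein acts in a pathway of which 13 genes were listed, and 7 of them were found in the table. Of these 7, 4 were called higher and none lower, against 26.4% and 29.2% of all genes. Their median relative log2 ratio was 1.10. Bruce, a giant inhibitor of apoptosis that is degraded during individualization, had 21.9 FPKM in the βNACtes IP and 2.78 FPKM in total ribosomes, with a relative log2 ratio of 2.203, close to that of soti. Bruce has 15702 exonic bp and falls in the longest group of genes. Roc1b, the RING subunit of the Cullin-3 ligase of the testis, had 620 FPKM in the βNACtes IP and 175 FPKM in total ribosomes. Its partner klhl10, the adaptor that Soti binds, was at 2.5 FPKM in the βNACtes IP and 1.34 FPKM in total ribosomes.

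Cyt-c-d, the testis cytochrome c needed for caspase activation, had 780 FPKM in the βNACtes IP and 212 FPKM in total ribosomes. ntc, an F-box protein that promotes caspase activity through the proteasome, had 94.2 FPKM in the βNACtes IP and 25.7 FPKM in total ribosomes. The relative log2 ratios of Roc1b, Cyt-c-d and ntc lay between 1.10 and 1.15, just past the threshold. PI31, the proteasome regulator that binds ntc, was at −0.29, with 169 FPKM in the βNACtes IP and 125 FPKM in total ribosomes. skap (listed as ScsbetaA), a subunit of the mitochondrial succinyl-CoA synthetase that activates the ligase, was at 0.86, with 723 FPKM in the βNACtes IP and 240 FPKM in total ribosomes. klhl10 was at 0.12. The other 6 genes, Cul3, Dronc, Drice, Dcp-1, Dark and hid, were not analysed here.

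Genes of the sperm tail and sperm chromatin are transcribed in spermatocytes for the most part and translated in spermatids. Of 13 on the list 11 were found, with a median of 0.68. Of these 11, 5 were called higher and 1 lower, against 26.4% and 29.2% of all genes. The highest of them was djl, with 467 FPKM in the βNACtes IP, 41.4 FPKM in total ribosomes and a relative log2 ratio of 2.76. dj, a sperm tail protein gene, was at 2.22 with 638 FPKM in the βNACtes IP and 82.3 FPKM in total ribosomes, a ratio like those of soti and w-cup. The lowest was Mst84Db at −1.57, with 1302 FPKM in the βNACtes IP and 2325 FPKM in total ribosomes. These genes were on the whole more abundant than the cup genes, with medians of 969 FPKM in the βNACtes IP and 480 FPKM in total ribosomes, against 133 and 24.1 FPKM for the 12 cup genes in the same order.

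The list of spermatocyte transcription and meiosis genes had a median of −0.18 over 14 genes, of which 4 were called higher and 1 lower. The share called higher was 28.6%, close to the 26.4% of all genes, while the 1 of 14 called lower stands against 29.2% of all genes. fzo, the mitofusin of spermatids and 1 of the 4 called higher, was at 2.11. aly, a regulator of the spermatocyte transcription programme, was at −3.004, with 17.3 FPKM in the βNACtes IP and 84.0 FPKM in total ribosomes. The lists differ in level and in exonic length, with a median of 1874 bp for the cup genes, 1065 bp for tail and chromatin genes and 2323 bp for the spermatocyte list.

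Markers of other cells were present in both columns. Their counts below stand against 26.4% called higher and 29.2% called lower over all genes. All 10 accessory gland genes found of 12 listed were called lower, and they summed to 24333 FPKM in the βNACtes IP and 92452 FPKM in total ribosomes, or 3.03% and 6.44% of all FPKM in the same order. Of 6 muscle sheath genes 1 was called higher and 1 lower, with a median relative log2 ratio of −0.10 and sums of 148 FPKM in the βNACtes IP and 143 FPKM in total ribosomes. Of 5 hub and cyst cell markers 4 were found, with sums of 17.1 FPKM in the βNACtes IP and 7.23 FPKM in total ribosomes, 2 called higher and 1 lower of the 3 that passed the filter and a median relative log2 ratio of 1.35, above those of the soti pathway and of tail and chromatin genes. tj, which defines early cyst cells, was at 0.32 FPKM in the βNACtes IP and is listed at 0 in total ribosomes. The spermatogonial genes bam, bgcn and vas summed to 43.8 FPKM in the βNACtes IP and 15.2 FPKM in total ribosomes, with a median relative log2 ratio of −0.28, and none of the 3 was called. The part of these cells in the ratios of the cup genes was not tested.

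The number of cup genes called depends in part on how the columns are scaled. With the deposited values as they are, 10 of the 12 were called higher, h-cup being added at 1.45, and 43.6% of all genes were then higher. When each column was scaled to TPM (each value divided by its column total, then multiplied by a constant), all 12 were called higher, and so were 62.1% of all genes. Of all genes called, 47.5% were higher with centring, 70.5% with the deposited values and 87.6% with TPM. Upper-quartile scaling gave 9 of 12 with 32.1% of all genes.

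**Figure D5:**
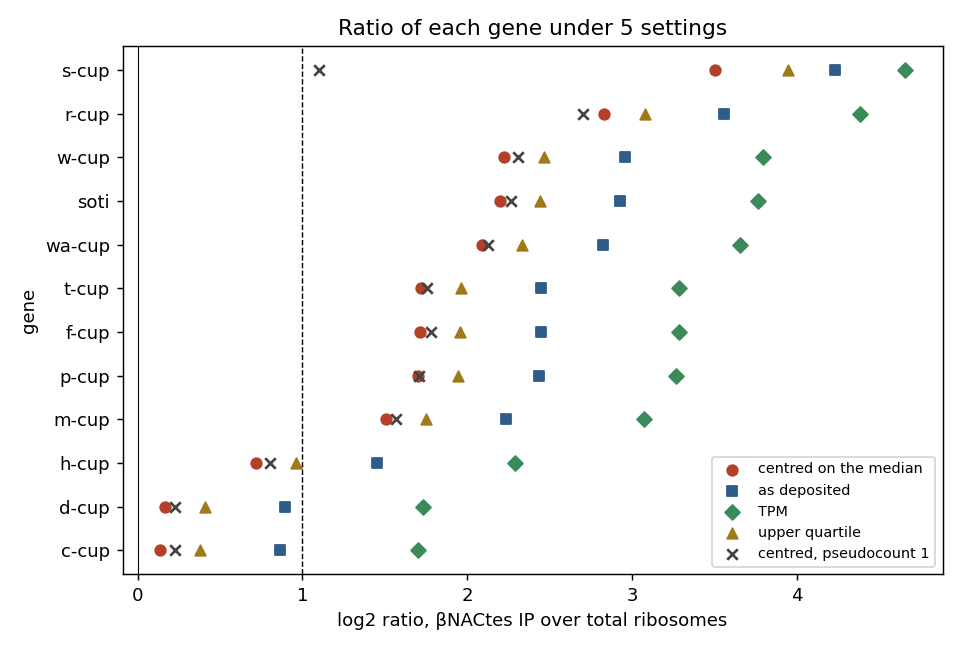
Log2 ratio of the βNACtes IP over total ribosomes for each of the 12 genes under 5 settings, with a dashed line at 1. With TPM scaling all 12 points lie past the line, and s-cup drops to 1.10 when 1 FPKM is added to each value.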

How the data were processed

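The authors deposited 1 table of 12847 genes under 12782 identifiers with a mean for the βNACtes IP, a mean for total ribosomes and their log2 ratio. The log2 ratio column is the authors' own comparison and was not used. The unit of the deposited values is not named and was taken as FPKM, because weighting each value by exonic length in kb gave almost the same total for both columns (1098120 for the βNACtes IP, 1098790 for total ribosomes). The submitters' processing notes name Bowtie, Bowtie2, TopHat2 2.0.14, Cufflinks 2.2.1 and the build dm3, with no roles. How reads matching several genes were counted is not given in the sources used here. The labels name total RNA, and the paper describes sequencing of testis polyA mRNA.

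Means of at least 1 FPKM were kept (9793 genes). The log2 ratio was computed with a pseudocount of 0.1 and centred on the median. Coordinates and exonic lengths come from Ensembl release 115 (BDGP6), matched by identifier, for 12646 identifiers, and were not joined to dm3 positions. No sequences were used here. Depth and precision are unknown, and no test was possible with 1 mean per group. The calling step was tested on simulated data. Named were all members, the comet and soti pathway genes, the extremes of other lists, and neighbours or overlapping genes. The members and lists were chosen with earlier results of these data known. CG14367, CG1532, bun, dj and the other single genes outside this rule were picked after their values were seen. Python 3.11.15, numpy 2.4.6, pandas 2.3.3 and matplotlib 3.10.9 were used. Alternatives were other scalings, filters and a pseudocount of 1, and leaving out members.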

Additional observations from a re-analysis of the deposited data

How the results depend on the processing

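The count of cup genes called higher stayed between 8 and 10 of those kept under every change of filter, pseudocount or scaling except TPM, where it was 12, and no cup gene was called lower under any of them. With genes of at least 10 FPKM s-cup was lost and 8 of 11 were higher, against 25.8% of all genes. Without a filter 9 of 12 were higher, against 25.7% of all genes, and with a pseudocount of 1 also 9 of 12, against 21.8%. Leaving out the 4 genes with overlapping exons removed f-cup and all 3 genes that were not called. The 8 genes left were therefore all higher, with the same calls as before and a median of 2.14. For this setting the share over all genes without such overlaps is not given. Without s-cup 8 of 11 were higher, and without f-cup, m-cup and s-cup 6 of 9, with a median of 1.72; these 2 settings were chosen after seeing the data. The median over the genes was 1.59 without a filter, 1.73 with a pseudocount of 1, 1.86 from 10 FPKM, 1.96 with upper-quartile scaling, 2.45 with the deposited values and 3.28 with TPM. Of 71 ratios of single genes under 6 alternatives, 67 kept their side of the threshold and 4 passed it, h-cup with the deposited values and c-cup, d-cup and h-cup with TPM. Leaving out libraries was not run, because the table holds no library's own values. No paired analysis was possible because the table holds 1 mean per group. The precision of low values such as those of s-cup cannot be given without depth.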
